A study of Danio rerio with 8 samples.

Results

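The Rab genes of the zebrafish larval head were compared between wild-type (WT) larvae and larvae that lack *mtmr5* (named *sbf1* in the files). They were chosen by name alone, as the rows whose symbol starts with rab and a number in either case. Of 32520 rows, 85 had such a symbol, and 77 of these were among the 19412 rows tested, which held 10 or more counts in 3 or more libraries. The 77 tested rows are 66 Rab GTPases and 11 genes named for binding or regulating a Rab, which are 6 Rab11 family interacting proteins, *rab3gap1*, *rab3gap2*, *rab3ip*, *RAB3IL1* and *rab5if*. The other 8 rows (*rab44*, *rab25b*, a first *RAB19* row, *rab35a*, *rab9b*, *rab11fip5a*, *rab38b* and *rab31*) had 2 to 70 counts summed over the 8 libraries and were not tested. *rab28* is not analysed here.

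Both genotypes were in the AB strain background and were sampled as larvae at 7 days post fertilisation. The *mtmr5*-KO larvae were homozygous for a CRISPR/Cas9 deletion of the gene, and the WT larvae were their siblings. Each genotype gave 4 libraries of polyadenylated RNA, each from a pool of heads, and the replicates came from different breeding pairs. A head holds the eyes, skin and muscle beside the brain, so that fewer cells of a type and less RNA per cell cannot be told apart in these values.

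Rab proteins are small GTPases that mark the membranes of the secretory and endocytic routes. A guanine nucleotide exchange factor loads a Rab with GTP, the active Rab recruits effectors that move, tether or fuse vesicles, and a GTPase activating protein ends the cycle. MTMR5 carries a DENN domain, the hallmark of a large family of Rab exchange factors, and exchange activity of its family on Rab28 and Rab21 has been described in other systems. Counts of RNA do not measure how much of a Rab is bound to GTP. Teleost fish kept many Rab genes as duplicate pairs, often marked by a final a or b in the symbol, although not every such letter marks a pair of this kind.

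The label of the libraries was first checked on the targeted gene. Its raw counts were 2545, 1939, 2008 and 1894 in WT replicates and 63, 55, 42 and 26 in *mtmr5*-KO replicates. WT libraries held 20514932 to 22761120 counts and *mtmr5*-KO libraries 16104181 to 19170140. Without the 20 rows of highest abundance the depth was 14892840 to 17800728 and 6294627 to 8865749. Mitochondrially encoded genes held 6.43% to 8.82% of the counts of WT libraries and 18.6% to 26.6% of those of *mtmr5*-KO libraries. Of markers of the cell types in a head, 3 of 6 neuronal genes were higher in *mtmr5*-KO (summed TMM-scaled counts 70173 to 89642 in WT libraries, against 115804 to 129575). Of these 6, *elavl3* had the highest level and weighs most in the sum (mean 26342.5 in WT and 61699.8 in *mtmr5*-KO heads). *snap25b* (log2 fold change 0.47), *snap25a* (-0.17) and *stmn1b* (-0.23) were not called. All 6 epidermal genes were higher (6201 to 13732 and 15147 to 39399), as were all 5 tested liver genes (308.5 to 552.6 and 1080 to 3665), and 3 of 5 tested muscle genes were higher and 1 lower (1975 to 2305 and 3203 to 4034). All 6 lens genes were lower (37790 to 230205 and 763 to 6669). No call was made among 6 photoreceptor genes, 2 tested of 4 listed erythrocyte genes and 5 tested of 6 listed macrophage genes. The part of these shifts in the Rab values was not tested.

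Counts were scaled between libraries by the trimmed mean of M-values (TMM), and a TMM-scaled count is a count at the mean depth of the 8 libraries after that scaling. Genes were tested by quasi-likelihood in edgeR and called at a Benjamini-Hochberg adjusted p under 0.05 over all 19412 rows. Of the 77 Rab-named genes, 15 were higher in *mtmr5*-KO, which is 19.5%, beside 13.5% of all rows tested. A further 5 were lower, which is 6.49%, beside 7.51% of all rows tested. Among the 66 GTPases alone, 10 were higher (15.2%) and 3 lower (4.55%), shares close to those of all rows. The 3 lower ones include a *RAB19* row that passed the filter only through its WT libraries. The median log2 fold change was -0.08 over the 66 GTPases and -0.02 over all rows, so that the median lay slightly below 0 although more GTPases were called higher than lower. The summed TMM-scaled counts of the 66 GTPases were 29519 ± 1056 in WT and 30830 ± 758 in *mtmr5*-KO heads (SD, n = 4 each), and the libraries of the genotypes overlapped.

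The lower calls depended on single libraries, among all rows as among the Rab-named genes. The 77 genes held 2 lower calls without WT replicate 2, 3 without WT replicate 3 and 9 without *mtmr5*-KO replicate 1, where all rows held 744, 831 and 1829 in place of 1457. The GTPases held 6 higher calls without WT replicate 2 and 6 without *mtmr5*-KO replicate 4. All rows then held 2011 and 2131 higher calls, in place of 2618. The GTPases held 1 and 7 lower calls without WT replicate 2 and *mtmr5*-KO replicate 1. Of the 20 called genes, 11 were called whichever library was left out. With the replicate number as a block in the fit, the 77 genes held 15 higher and 8 lower calls. All rows then held 2879 higher and 2264 lower calls, and *rab3ab* lost its call. Without both *mtmr5*-KO replicates 3 and 4, which were known from earlier results to lie farther from WT, the 77 genes held 7 higher and 3 lower calls. All rows then held 1581 higher and 798 lower calls, in place of 2618 and 1457. At the study's thresholds, an adjusted p under 0.01 and a log2 fold change beyond 1 in either direction, *rab11fip1a*, *rab11fip4a* and *rab1aa* were higher and *rab3gap2* was lower, beside 7.13% of all rows higher and 1.08% lower. With DESeq2, the tool of the study, 9 Rab-named genes were higher and 3 lower at these thresholds. DESeq2 called more rows of all as well. At an adjusted p under 0.05 it held 3047 higher and 1981 lower rows, beside 2618 and 1457 with edgeR. With edgeR, those thresholds gave 7 higher Rab-named genes without *mtmr5*-KO replicate 1 and 0 lower ones without WT replicate 1, 3 or 4. The share of all rows was not counted for these fits or for DESeq2 at those thresholds.

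**Figure D1:**
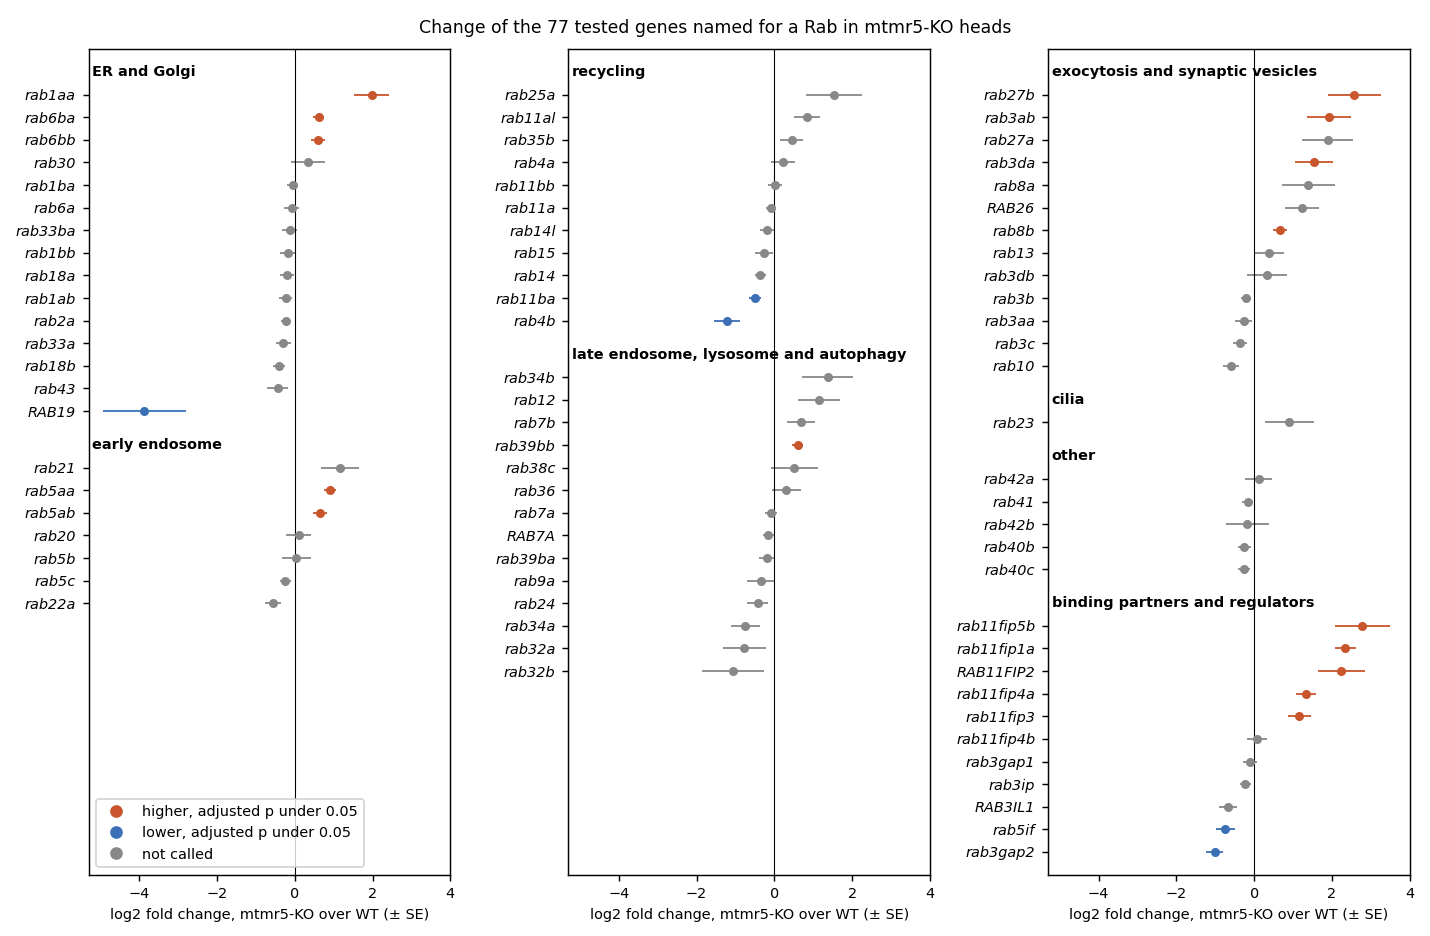
Log2 fold change, *mtmr5*-KO over WT, of the 77 tested genes named for a Rab, grouped by the step of membrane traffic they serve. Points are edgeR estimates, bars are ± 1 SE, and colours mark the 15 higher and 5 lower genes under TMM scaling. Of all rows, 13.5% were higher and 7.51% lower. With library totals the counts were 3 and 44, where all 19412 rows held 719 and 10819. Most GTPases lie near 0. All 6 Rab11 family interacting proteins have a positive value, and 5 of them were called higher.

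The clearest group was the Rab11 family interacting proteins (FIPs), which link active Rab11 on recycling endosomes to motors and to the membranes they reach. Of 6 tested, 5 were higher in *mtmr5*-KO heads, and for all 5 the genotypes did not overlap, beside 13.9% of all rows that were higher without overlap. The median log2 fold change of the 6 genes was 1.79. This group was picked out with its values known and gets no test of its own, and its count reads against the 13.5% of all rows that were higher.

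*rab11fip1a* encodes the counterpart of FIP1, also known as Rab coupling protein, an effector that returns receptors such as integrins to the cell surface. It had 45.2, 55.1, 52.1 and 68.2 TMM-scaled counts in WT and 189, 225, 440 and 272 in *mtmr5*-KO. The lowest *mtmr5*-KO library thus held more than the highest WT library. The mean rose from 55.2 ± 9.64 to 281 ± 111 (SD, n = 4 each), which is 2.35 on the log2 scale (SE 0.28, edgeR adjusted p = 1.69e-05). It was the Rab-named gene with the smallest p.

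*RAB11FIP2* and *rab11fip5b* encode further FIPs of the same class, which carry a membrane-binding C2 domain. *RAB11FIP2* had 9.05, 9.77, 6.79 and 3.10 TMM-scaled counts in WT and 49.99, 24.3, 16.2 and 47.8 in *mtmr5*-KO libraries (log2 fold change 2.24, SE 0.60, edgeR adjusted p = 0.0149). *rab11fip5b* had 3.62, 6.98, 4.53 and 0.775 in WT and 14.5, 31.5, 42.4 and 25 in *mtmr5*-KO libraries (2.78, SE 0.71, adjusted p = 0.0108). *rab11fip5b* reached 10 counts in 3 *mtmr5*-KO libraries and 1 WT library, and so entered the test mainly through the genotype in which it is high. *RAB11FIP2* reached 10 counts in 3 *mtmr5*-KO and 2 WT libraries, and would not have passed on its WT libraries alone. Both genes had few counts in WT, so the size of their change is less certain than that of *rab11fip1a*.

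*rab11fip3* and *rab11fip4a* encode the class that also binds Arf GTPases and acts in the delivery of endosomes to the site of cell division. *rab11fip3* had 44, 50.3, 44.5 and 32.6 TMM-scaled counts in WT and 74.2, 97.3, 127 and 85.3 in *mtmr5*-KO libraries (log2 fold change 1.16, SE 0.30, edgeR adjusted p = 0.0122). *rab11fip4a* had 173, 106, 100 and 136 in WT and 213, 353, 483 and 252 in *mtmr5*-KO libraries (1.33, SE 0.26, adjusted p = 0.00189). Its duplicate *rab11fip4b* had 238 ± 72.8 in WT and 250 ± 75.0 in *mtmr5*-KO heads (SD, n = 4 each, log2 fold change 0.07, adjusted p = 0.876), and its libraries overlapped throughout. The log2 ratio of *rab11fip4a* to *rab11fip4b*, taken within each library, averaged -0.86 in WT (SD 0.249) and 0.36 in *mtmr5*-KO (SD 0.910). The means differed by 1.22 (two-sided exact permutation test, p = 0.0286, the lowest value possible with 4 against 4). Most of this difference came from *mtmr5*-KO replicates 2 and 3, at 1.09 and 1.20. The *mtmr5*-KO replicates 1 and 4, at -0.485 and -0.374, lay just above the highest WT ratio, which was -0.506 in replicate 2.

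All 5 FIPs, among them *RAB11FIP2* and *rab11fip5b* with the limit given above, were called in each of the 8 fits that left out 1 library. Without both *mtmr5*-KO replicates 3 and 4, 3 FIPs were called, and with library totals as the scaling 2 were. In these fits 1581 and 719 rows of all were higher, in place of 2618.

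**Figure D2:**
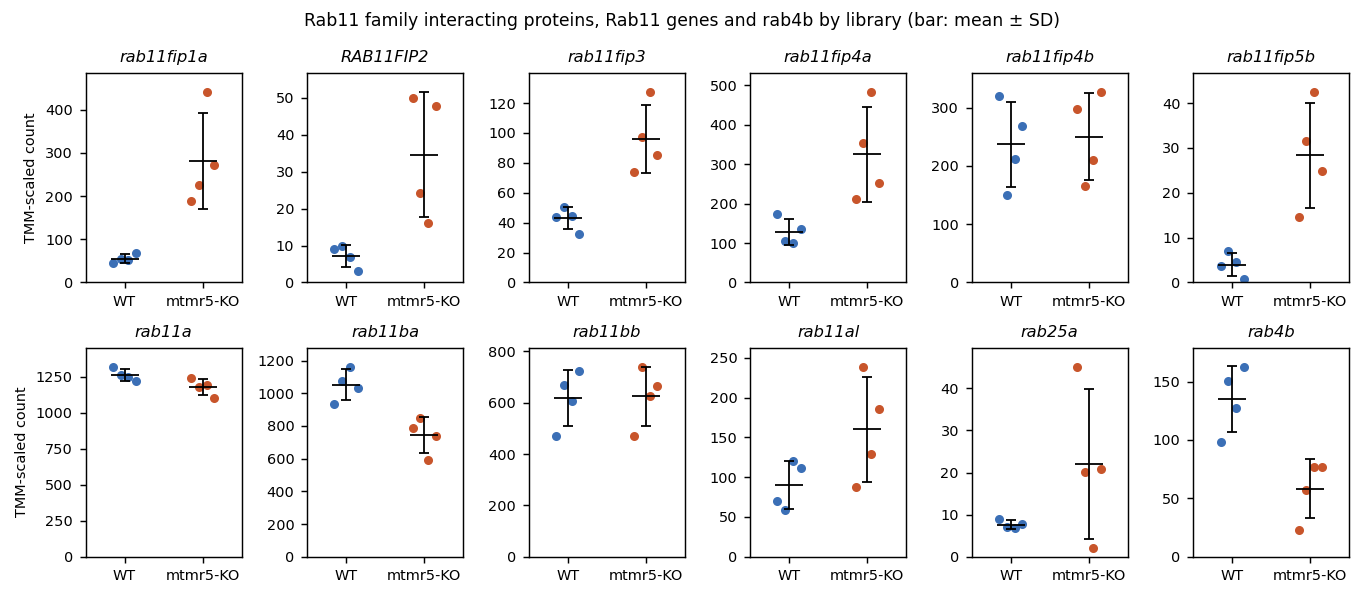
TMM-scaled counts by library of the 6 Rab11 family interacting proteins, 5 Rab11 family GTPases and *rab4b*, in WT (blue) and *mtmr5*-KO (orange) libraries. Each point is a library, and the bar gives the mean ± SD (n = 4). For 5 of the 6 interacting proteins the genotypes do not overlap, while *rab11ba* and *rab4b* are lower in *mtmr5*-KO.

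Rab11 returns cargo from the recycling endosome to the plasma membrane by a slow route, and Rab4 does so by a fast route. Of the 11 GTPases of the recycling routes, none was called higher and 2 were called lower, beside 7.51% of all rows, with a median log2 fold change of -0.10. All rows held 13.5% higher calls.

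*rab11ba* had 936, 1074, 1163 and 1032 TMM-scaled counts in WT and 790, 851, 594 and 736 in *mtmr5*-KO libraries. The genotypes did not overlap, and the mean fell from 1051 ± 94.3 to 743 ± 110 (SD, n = 4 each, log2 fold change -0.50, SE 0.15, edgeR adjusted p = 0.0251). The call was lost without WT replicate 2 (adjusted p = 0.0687) or WT replicate 3 (adjusted p = 0.0909). Its duplicate *rab11bb* had 618 ± 109 and 625 ± 115 (log2 fold change 0.02, adjusted p = 0.960), a value whose sign turned under 7 alternatives. *rab11a* had 1263 ± 42.4 and 1179 ± 55.9 (-0.10, adjusted p = 0.627).

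*rab4b* had 98.3, 151, 128 and 163 TMM-scaled counts in WT and 22.6, 57.2, 76.7 and 77 in *mtmr5*-KO libraries. All 4 of the latter lay below the lowest WT library, with a log2 fold change of -1.22 (SE 0.34, edgeR adjusted p = 0.0182). The call was lost without WT replicate 2 (adjusted p = 0.0576) or WT replicate 4 (adjusted p = 0.0573). *rab14*, which acts between the Golgi and endosomes, also did not overlap between genotypes, at 1251 ± 17.9 in WT and 972 ± 130 in *mtmr5*-KO heads, but was not called (-0.36, adjusted p = 0.0742). *rab25a*, the epithelial relative of Rab11, had 7.64 ± 1.02 and 22 ± 17.7, with *mtmr5*-KO replicate 3 below every WT library, and was not called (1.52, adjusted p = 0.149).

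Of the 7 GTPases of the early endosome, 2 were higher and none was lower, beside 13.5% and 7.51% of all rows. The 2 were both forms of *rab5a*, whose log2 fold changes turned negative (-0.072 and -0.29) when libraries were scaled by their totals. Rab5 controls the fusion of endocytic vesicles and recruits the phosphoinositide kinase whose lipid product the active myotubularins remove. *rab5aa* had 1478, 1498, 1744 and 1763 TMM-scaled counts in WT and 2613, 2998, 3661 and 2866 in *mtmr5*-KO libraries. The libraries did not overlap, and the mean rose from 1621 ± 154 to 3034 ± 447 (SD, n = 4 each, log2 fold change 0.90, SE 0.15, edgeR adjusted p = 0.000358). It was the GTPase with the smallest p, and it was called whichever library was left out, with adjusted p-values of 0.000261 to 0.00293.

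*rab5ab* had 163, 172, 177 and 229 TMM-scaled counts in WT and 287, 295, 246 and 333 in *mtmr5*-KO libraries. All *mtmr5*-KO libraries were above all WT libraries (log2 fold change 0.65, SE 0.19, edgeR adjusted p = 0.0218). The call was lost without any of WT replicates 1 to 3 or *mtmr5*-KO replicate 4, with adjusted p-values of 0.0586 to 0.0724. The ratio of *rab5aa* to *rab5ab* did not differ beyond its spread (0.24 on the log2 scale, exact permutation test, p = 0.257). The other Rab5 genes were not called, with *rab5b* at 57.5 ± 10.8 in WT and 59.7 ± 25.3 in *mtmr5*-KO heads and *rab5c* at 1370 ± 61.6 and 1159 ± 150 (SD, n = 4 each).

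*rab21*, given here because exchange activity of the MTMR5 family on Rab21 has been described, acts in early endosomes and integrin traffic. It had 103, 55.1, 46 and 21.7 TMM-scaled counts in WT and 43.5, 97.3, 206 and 164 in *mtmr5*-KO libraries. The genotypes overlapped, and the log2 fold change of 1.16 (SE 0.48) did not pass the test (edgeR adjusted p = 0.110). The call depended on single libraries, since the gene passed without WT replicate 1 (1.62, adjusted p = 0.0292) or without *mtmr5*-KO replicate 1 (1.42, adjusted p = 0.0292), while the value was 0.27 (adjusted p = 0.790) without both *mtmr5*-KO replicates 3 and 4 and 0.043 with library totals. *rab22a*, another endosomal Rab, was at 336 ± 57.8 in WT and 228 ± 45.8 in *mtmr5*-KO heads (-0.56, adjusted p = 0.0560).

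Between the endoplasmic reticulum and the Golgi, 3 of 15 GTPases were higher and 1 was lower, beside the 13.5% and 7.51% of all rows, with a median log2 fold change of -0.18. *rab6ba* and *rab6bb* encode Rab6B, the form of Rab6 known from neurons, which serves transport from the Golgi back to the endoplasmic reticulum, and both were higher with TMM scaling and had negative values (-0.34 and -0.36) with library totals. *rab6ba* had 1536, 1700, 2015 and 1834 TMM-scaled counts in WT and 2526, 2915, 2990 and 2404 in *mtmr5*-KO libraries, with no overlap (log2 fold change 0.61, SE 0.14, edgeR adjusted p = 0.00604). *rab6bb* had 1551, 2180, 2453 and 2539 in WT and 2498, 3337, 3400 and 3962 in *mtmr5*-KO libraries (0.60, SE 0.18, adjusted p = 0.0278). Its lowest *mtmr5*-KO library lay below its highest WT library, and its call was lost in 5 of the 8 fits without 1 library, with adjusted p-values of up to 0.0979. The broadly expressed form *rab6a* was not called. Of the 6 neuronal markers, 3 were called higher, *snap25b* was not called (0.47), and *snap25a* (-0.17) and *stmn1b* (-0.23) had negative values. Their part in the change of the Rab6B genes was not tested.

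*rab1aa* encodes a form of Rab1, which starts transport from the endoplasmic reticulum to the Golgi. It had 21.7, 11.2, 12.1 and 12.4 TMM-scaled counts in WT and 33.9, 63.0, 48.5 and 83.2 in *mtmr5*-KO libraries. The genotypes did not overlap (log2 fold change 1.97, SE 0.44, edgeR adjusted p = 0.00462). Its duplicate *rab1ab*, at 737 ± 57.4 in WT and 629 ± 149 in *mtmr5*-KO heads (SD, n = 4 each), was not called (-0.23, adjusted p = 0.369), nor were *rab1ba* and *rab1bb*. The rise was thus in the Rab1 gene with the fewest counts.

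The row named *RAB19* a second time in the files, for a Golgi Rab, held 30, 14, 20 and 21 raw counts in WT, against 0, 0, 0 and 2 in *mtmr5*-KO. It was detected in every WT library and in 1 *mtmr5*-KO library. Only its WT libraries reached the minimum of 10 counts, so the row entered the test through the genotype in which it is high and is given as a description. It is still included in the counts of lower calls. The fitted log2 fold change was -3.87 (SE 1.06, edgeR adjusted p = 0.0168), and -7.01 without *mtmr5*-KO replicate 4, the library with its 2 counts. Over the summed counts, 85 against 2, the WT level was 17.1 times the *mtmr5*-KO level after scaling (exact 95% interval 4.59 to 143, counting error only). Neither this interval nor the adjusted p takes account of how the row passed the filter. The first row of that name fell below the filter, with 26, 4, 12 and 9 raw counts in WT and 3, 0, 5 and 1 in *mtmr5*-KO libraries, and whether reads were split between the rows was not tested.

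Among the 13 GTPases of exocytosis and synaptic vesicles, 4 were higher and none was lower, beside 13.5% and 7.51% of all rows, and the median log2 fold change was 0.67. Their counts were mostly low. *rab8b*, a form of Rab8, which serves polarised secretion and cilia, had 268, 276, 259 and 250 TMM-scaled counts in WT and 402, 363, 555 and 356 in *mtmr5*-KO libraries. The WT libraries lay close together and below all *mtmr5*-KO libraries (log2 fold change 0.67, SE 0.17, edgeR adjusted p = 0.0129). The call was lost without *mtmr5*-KO replicate 3 (adjusted p = 0.0509).

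*rab3da*, a form of the secretory granule Rab3D, had 15.1, 6.28, 12.1 and 24 TMM-scaled counts in WT and 49.99, 42.9, 46.4 and 29.1 in *mtmr5*-KO libraries, with no overlap (log2 fold change 1.55, SE 0.49, edgeR adjusted p = 0.0336, lost in 6 of the 8 fits without 1 library, with adjusted p-values of up to 0.103). *rab3ab*, a form of the synaptic vesicle Rab3A, had 24.7, 17.4, 10.6 and 17.1 in WT and 8.06, 65.8, 94.9 and 102 in *mtmr5*-KO libraries (1.93, SE 0.57, adjusted p = 0.0239). Its *mtmr5*-KO replicate 1 lay below every WT library while the other 3 lay above, and the call was lost in 5 of the 8 fits, with adjusted p-values of up to 0.0887. Without that library the log2 fold change was 2.29 and the adjusted p was 0.000809. Its duplicate *rab3aa*, at 789 ± 122 and 654 ± 253, was not called (-0.27, adjusted p = 0.429).

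*rab27b*, which docks secretory vesicles and lysosome-related organelles, had 7.24, 7.68, 18.9 and 5.43 TMM-scaled counts in WT and 11.3, 38.6, 40.4 and 148 in *mtmr5*-KO libraries. The genotypes overlapped, and *mtmr5*-KO replicate 4 was the highest library (log2 fold change 2.58, SE 0.67, edgeR adjusted p = 0.0128). Without that library it was 1.58 with an adjusted p of 0.116. *rab27a* did not overlap, at 3.62, 4.19, 11.3 and 7.75 in WT and 12.9, 18.6, 44.4 and 25 in *mtmr5*-KO libraries, and was not called (1.89, adjusted p = 0.0550). The synaptic Rabs with more counts, *rab3b* and *rab3c*, were not called.

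Of the 14 GTPases of late endosomes, lysosomes and autophagy, 1 was higher (7.14%) and none was lower, beside 13.5% and 7.51% of all rows. *rab39bb* is a form of RAB39B, whose human gene is mutated in an X-linked form of intellectual disability with early parkinsonism. It had 505, 439, 607 and 483 TMM-scaled counts in WT and 766, 704, 723 and 880 in *mtmr5*-KO libraries. The genotypes did not overlap (log2 fold change 0.59, SE 0.15, edgeR adjusted p = 0.0105), while its duplicate *rab39ba*, at 226 ± 23.5 and 198 ± 41.1, was not called (-0.19, adjusted p = 0.547). *rab7a*, which governs late endosome and lysosome fusion, had 1293, 1487, 1515 and 1422 in WT and 1547, 1341, 1082 and 1410 in *mtmr5*-KO libraries (-0.09, SE 0.14, adjusted p = 0.713). Among the 5 Rab-named genes with the most counts, *rab5aa*, *rab6ba* and *rab6bb* were higher, and *rab7a* and *rab2a* (-0.23, adjusted p = 0.238) were not called. All 5 had a mean over 1000 TMM-scaled counts, a level at which 33% of all rows and 27.3% of the GTPases were higher. The single cilium-linked Rab tested, *rab23*, and the 5 Rabs without a settled step were not called.

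**Figure D3:**
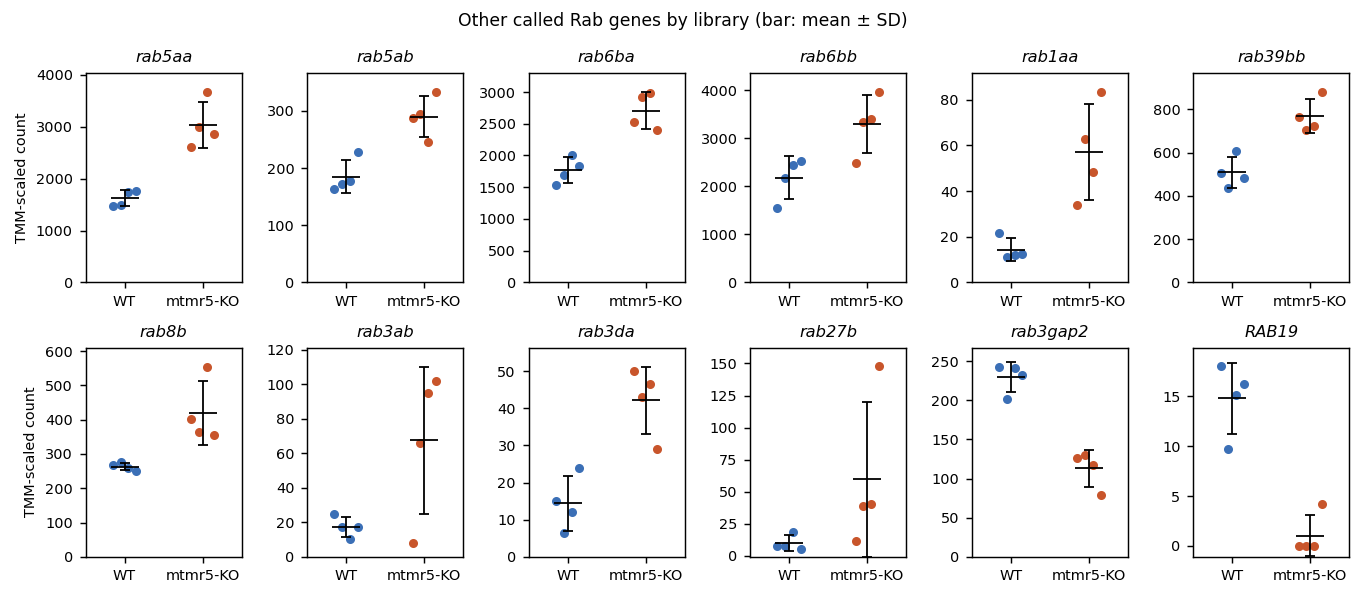
TMM-scaled counts by library of 12 further called Rab-named genes in WT (blue) and *mtmr5*-KO (orange) libraries. Each point is a library, and the bar gives the mean ± SD (n = 4). Under TMM scaling the genotypes are apart for *rab5aa*, *rab6ba*, *rab39bb* and *rab3gap2*, the first 3 of which turn negative with library totals, while single libraries stand out for *rab3ab* and *rab27b*.

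The 5 partners other than the FIPs all had a negative log2 fold change, and 2 were called lower, beside 7.51% of all rows. *rab3gap2* encodes the noncatalytic subunit of the Rab3 GTPase activating complex, which also acts as the exchange factor of Rab18, and whose human genes are mutated in Warburg Micro and Martsolf syndromes of the eye and brain. It had 243, 201, 242 and 233 TMM-scaled counts in WT and 126, 130, 117 and 79.0 in *mtmr5*-KO libraries. The genotypes were far apart, and the level fell (n = 4 each, log2 fold change -1.02, SE 0.21, edgeR adjusted p = 0.00315). The catalytic subunit gene *rab3gap1* was not called (-0.11, adjusted p = 0.715), and the difference between the subunit genes was not tested.

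*rab5if*, named for interaction with Rab5, had 415, 425, 357 and 343 TMM-scaled counts in WT and 323, 255, 105 and 237 in *mtmr5*-KO libraries (log2 fold change -0.74, SE 0.25, edgeR adjusted p = 0.0476). Every *mtmr5*-KO library lay below every WT library, but the call was lost in 7 of the 8 fits without 1 library, with adjusted p-values of up to 0.122. *RAB3IL1*, an exchange factor of Rab8 and binder of Rab3A, was at 122.7 ± 11.9 in WT and 76.9 ± 2.88 in *mtmr5*-KO heads without overlap and missed the call (-0.68, adjusted p = 0.0530). *rab3ip*, which encodes the related exchange factor Rabin8, was not called (adjusted p = 0.279).

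Duplicate pairs allow a comparison that does not depend on the scaling of the libraries, since the ratio of the 2 counts is taken within each library. Both genes were tested in 13 of 16 listed pairs, and for 4 of them the ratios of the genotypes did not overlap, beside 21.9% of 2097 pairs of genes whose symbols differ in a final a or b. Those 2097 pairs were taken by symbol alone and also hold genes such as *rab8a* and *rab8b*, which are not a listed pair. Each of the 4 had an exact permutation p of 0.0286, the smallest that this design allows, before any allowance for 13 pairs. The log2 ratio of *rab1aa* to *rab1ab* rose from -5.70 ± 0.360 to -3.49 ± 0.864 in *mtmr5*-KO (SD over 4 libraries), and that of *rab39ba* to *rab39bb* was -1.16 ± 0.240 and -1.97 ± 0.272. The log2 ratio of *rab34a* to *rab34b* was 3.80 ± 0.703 in WT and 1.66 ± 0.747 in *mtmr5*-KO libraries. This ratio is less certain, since *rab34b* held only 9, 9, 12 and 11 raw counts in WT and 21, 8, 6 and 9 in *mtmr5*-KO libraries. Rab34 acts in lysosome positioning and cilium formation, and neither gene of this pair was called by itself (-0.75, adjusted p = 0.171, and 1.37, adjusted p = 0.151). The pair of FIP4 genes is the other one. The log2 ratio of *rab6ba* to *rab6bb* was -0.28 ± 0.194 in WT and -0.27 ± 0.315 in *mtmr5*-KO libraries (exact permutation test, p = 0.971). Its means differed by 0.01, less than the spread, and the test cannot show that the ratio was unchanged.

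**Figure D4:**
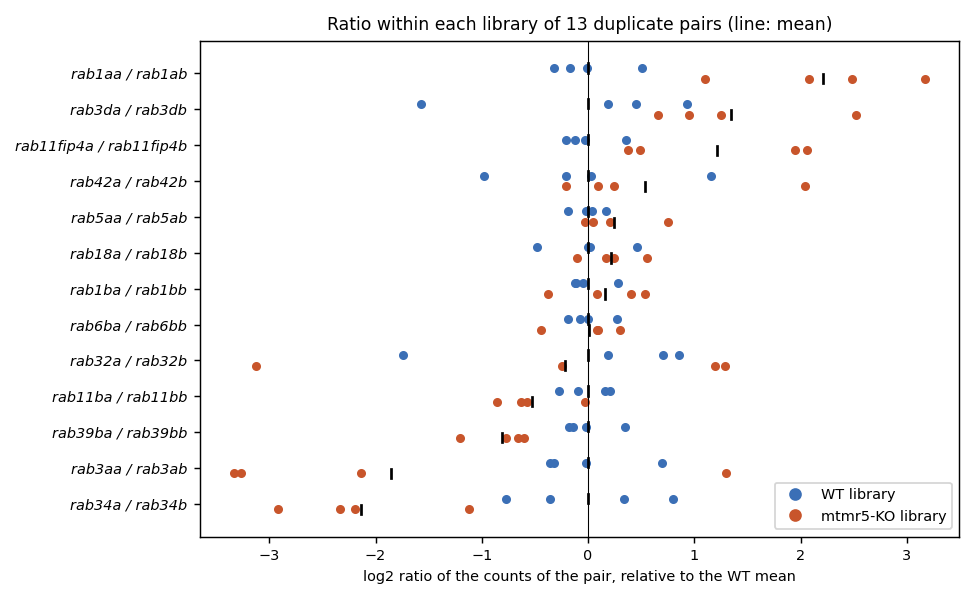
Log2 ratio of the counts of 2 duplicate genes within each library, less the WT mean, for 13 pairs in WT (blue) and *mtmr5*-KO (orange) libraries, with a line at each mean. For *rab1aa* / *rab1ab*, *rab11fip4a* / *rab11fip4b*, *rab39ba* / *rab39bb* and *rab34a* / *rab34b* no library of one genotype lies among those of the other.

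Genes of low level tended to have a positive log2 fold change. Of the 29 GTPases with a mean under 100 TMM-scaled counts, 22 had a positive value, beside 5123 of 8884 rows at that level. The median of the 29 was 0.38, beside 0.16 for all rows at that level. The 26 GTPases between 100 and 1000 had a median of -0.21, beside -0.14, and the 11 above 1000 had a median of -0.10, beside 0.05. The pattern of low genes tending upward was thus present among all rows, and counts per gene were not divided by transcript length, so that levels of different genes are not compared here.

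The other genes of the Rab cycle were counted from a list in 3 classes. Of 16 genes that prenylate Rabs, extract them from membranes or receive them there, none was higher and 4 were lower, beside 13.5% and 7.51% of all rows, with a median log2 fold change of -0.33. These 4 encode membrane proteins of the Yip and PRA1 families, which bind prenylated Rabs. *yipf2* fell from 413 ± 26.1 TMM-scaled counts to 268 ± 52.9 (n = 4 each, log2 fold change -0.62, edgeR adjusted p = 0.0186), *yipf3* fell by 0.71, *praf2* by 0.63 and *arl6ip5b* by 0.47 on the log2 scale. Leaving out single libraries ended the calls of *yipf2* (WT replicate 2, adjusted p = 0.0679), and of *yipf3*, *arl6ip5b* and *praf2* in 5, 4 and 7 of the 8 fits, with adjusted p-values of up to 0.0743, 0.0894 and 0.150.

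Of 32 exchange factors outside the DENN family, 2 were higher (6.25%) and 3 were lower (9.38%), beside 13.5% and 7.51% of all rows, with a median of -0.04. The TRAPP complexes, which load Rab1 and Rab11, held calls in both directions. *TRAPPC9* had 51.3, 74.0, 49.8 and 45 TMM-scaled counts in WT and 184, 177, 293 and 189 in *mtmr5*-KO libraries, with no overlap (log2 fold change 1.93, SE 0.26, edgeR adjusted p = 6.89e-05). *TRAPPC10*, its partner in the second complex, fell from 724 ± 59.3 to 456 ± 117 (-0.66, adjusted p = 0.0169, and 0.0546 without WT replicate 2), and *trappc8* of the third complex fell from 275 ± 15 to 161 ± 12.7 (-0.77, adjusted p = 0.00563). *rin1b*, an exchange factor of Rab5, rose from 580 ± 171 to 1192 ± 207 (1.04, adjusted p = 0.00159).

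Of 75 effectors, 17 were higher and 2 were lower, beside 13.5% and 7.51% of all rows, with a median log2 fold change of 0.27. *rims2b*, which binds Rab3 at the presynaptic active zone, had 4115, 4725, 4978 and 4753 TMM-scaled counts in WT and 12034, 12474, 14058 and 13188 in *mtmr5*-KO libraries (log2 fold change 1.48, SE 0.15, edgeR adjusted p = 3.55e-06). The genotypes were far apart, and the spread within each was small. *BICDL1*, an adaptor of Rab6 vesicles to dynein, rose by 1.82, and *golgb1*, the Golgi tether giantin, by 1.45 on the log2 scale. *rundc3aa*, whose mammalian counterpart is known for binding Rap2 and not a Rab, rose by 2.28. It is on the list of effectors and is counted among the 17. Over the whole list, the lower count of 9 was 5 without WT replicate 1, WT replicate 3 or *mtmr5*-KO replicate 4 and 3 without WT replicate 2. In the same order, all rows held 1097, 831, 1219 and 744 lower calls, in place of 1457.

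The scaling of the libraries decided the sign of several changes. Division by library totals in place of TMM moved the median log2 fold change of all rows from -0.02 to -0.98, and that of the 77 Rab-named genes to -1.02. Under that scaling 3 of the 77 Rab-named genes were higher (*rab11fip1a*, *rab11fip5b* and *rab27b*) and 44 were lower. Of all 19412 rows, 719 were then higher and 10819 lower, so the many lower calls were shared with all rows. The values of *rab5aa*, *rab5ab*, *rab6ba*, *rab6bb*, *rab39bb* and *rab8b* turned negative, and *rab11fip1a* stood at 1.33. Relative to the median of all rows, these genes were still above it. Under the RLE and upper quartile scalings, 20 and 19 of the 20 calls were kept.

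**Figure D5:**
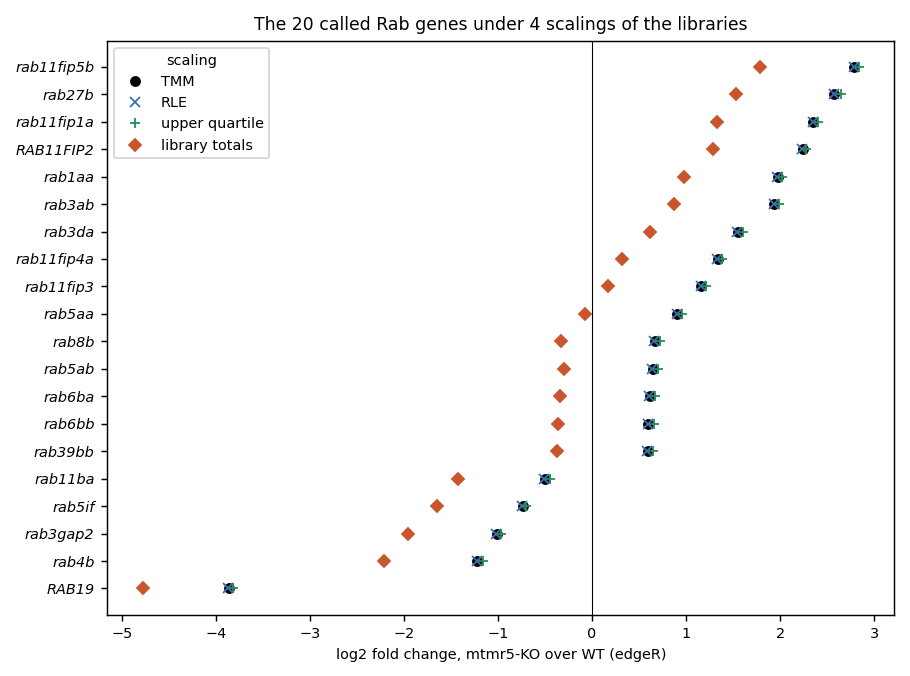
Log2 fold change, *mtmr5*-KO over WT, of the 20 called Rab-named genes under 4 scalings of the libraries. TMM, RLE and upper quartile values coincide, while library totals shift every gene to the left and take 6 genes across 0.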

How the data were processed

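RNA from pooled heads of 4 WT and 4 *mtmr5*-KO zebrafish libraries was sequenced by the authors. The authors used Trim Galore 0.6.7, STAR 2.7.11a with GRCz11, and HTSeq 2.0.5 for reads mapping to 1 place (versions from the submitters' processing notes). Sources used here give no strand setting, so reads of overlapping antisense genes may not be told apart, and reads of near-identical copies may be lost. The deposited raw counts are whole numbers. The deposited normalized counts are a signal, the raw counts over 1 size factor per library, and were used only in an alternative with limma. Total counts were 16104181 to 22761120 per library.

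Rows holding 10 or more raw counts in 3 or more libraries entered the quasi-likelihood test of edgeR 4.0.16 (glmQLFit with robust=TRUE, glmQLFTest, TMM, genotype as the only term, Benjamini-Hochberg over 19412 rows) in R 4.3.3. The SE is the size of the log2 fold change over the square root of F. Duplicate pairs were compared by the log2 ratio of counts plus 0.5 within a library, with a two-sided exact permutation test. On simulated counts of these libraries, the fit recovered 53% of 2-fold and 94% of 4-fold changes (100 genes each, mean of at least 50) and called 4 of 18604 unchanged genes. The simulation took the TMM scaling as true and changed far fewer genes than were called here. It therefore cannot measure error from the scaling. The members, lists and tests were chosen with earlier results of these data known. Named genes are every called Rab-named gene, *rab21*, the 5 with the highest mean count, duplicates of these, up to 4 called genes with the smallest p in each class of the Rab cycle list, and *sbf1*. Other Rab-named genes given with values were chosen after their values were seen. All 77 symbols were found in the RefSeq gene table. DESeq2 1.42.0, limma 3.58.1 and other scalings, filters and sample sets were run as alternatives. Alternatives for the duplicate pairs were chosen after seeing the data. Figures were drawn with matplotlib 3.10.9.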

Additional observations from a re-analysis of the deposited data

Results flagged for a closer look

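In groups of 4 libraries, 6 of 108 sets of values had 1 library far from the other 3, where chance gives about 5%. *rab1aa* had 21.7 TMM-scaled counts in WT replicate 1, beside 11.2 to 12.4 in the other WT libraries. *rab27b* had 18.9 in WT replicate 3, beside 5.43 to 7.68. The tested *RAB19* row had 4.16 in *mtmr5*-KO replicate 4, beside 0 in the other *mtmr5*-KO libraries. *TRAPPC9* had 293 in *mtmr5*-KO replicate 3, beside 177 to 189, and *rundc3aa* had 353 in the same library, beside 166 to 191. The log2 ratio of *rab1ba* to *rab1bb* was 1.32 in WT replicate 1, beside 0.91 to 0.98.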

How the results depend on the processing

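Depth outside the most abundant rows was lower in *mtmr5*-KO libraries, so genes with few counts are the least certain. Of 798 values of 42 named genes under 19 alternatives, 689 kept their direction and side of the threshold, 81 lost the call, 8 gained it and 20 changed sign, 9 of these with library totals. The cause was not tested.

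With library totals there were 3 higher and 44 lower Rab-named genes (1 and 37 at the study's thresholds), 1 and 38 GTPases, 2 FIPs, 719 and 10819 rows of all, and 6 and 74 genes of the Rab cycle list. The median log2 fold changes were -1.02 for the Rab-named genes, -1.03 for the GTPases and -0.98 for all rows. Signs turned for *rab5aa* (-0.072), *rab6ba* (-0.34), *rab39bb* (-0.38), *rab8b* (-0.33), *rab5ab* (-0.29), *rab6bb* (-0.36), *rab3db* (-0.64), *rab11bb* (-0.93) and *rab11fip4b* (-0.92). The upper quartile scaling gave 0 lower genes at the study's thresholds.

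Without a filter there were 5 lower GTPases, where all rows held 2499 higher and 1674 lower calls, and *rab11bb* was at -0.030. At the study's thresholds there were 5 higher and 2 lower Rab-named genes without a filter. The share of all rows at those thresholds was counted only in the main fit. DESeq2 gave 9 lower Rab-named genes and 6 lower GTPases, where 1981 rows of all were lower. At the study's thresholds it gave 9 higher and 3 lower Rab-named genes, and the share of all rows was not counted there. With both *mtmr5*-KO replicates 3 and 4 left out there were 7 higher and 3 lower Rab-named genes (1 and 0 at the study's thresholds), 4 higher GTPases, 3 FIPs, 1581 higher and 798 lower rows of all, and 12 higher and 3 lower genes of the Rab cycle list. There *rab11bb* was at -0.062, *rab11fip4b* at -0.081 and *rab3aa* at 0.055.

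With 1 library left out, Rab-named genes held 11 to 18 higher and 2 to 9 lower calls (2 to 7 and 0 to 1 at the study's thresholds), GTPases 6 to 13 and 1 to 7, all rows 2011 to 2778 and 744 to 1829, and the Rab cycle list 14 to 21 and 3 to 12. Pairs without overlap numbered 4 to 6. The share over all pairs with a final a or b was not counted with a library left out, where a lack of overlap arises more easily by chance. *rab11bb* ranged from -0.095 to 0.12 and was negative in the fits that left out WT replicate 1 and *mtmr5*-KO replicates 2 to 4. *rab11fip4b* ranged from -0.12 to 0.25 and was negative in the fits that left out WT replicate 2, *mtmr5*-KO replicate 1 and *mtmr5*-KO replicate 4.

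The same replicate numbers occur in both genotypes. The deviations of same-numbered libraries correlated at 0.103, 0.168, 0.0906 and 0.145, not all above 0.1, so the numbers were not taken as pairs, although every library correlated best with its own number. The paper gives different breeding pairs for the replicates but does not say that a number marks a shared pair. The main fit and the exact permutation tests ignore any such pairing. The fit with the replicate block gave 8 lower Rab-named genes (2 at the study's thresholds), 6 lower GTPases and 2264 lower rows of all, and 19 of the 20 calls were kept.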

Other observations

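The row ENSDARG00000036462 carries no symbol in the files and was therefore outside the selection by name, and the gene name table gives it as *rab11fip1b*, the duplicate of *rab11fip1a*. It had 97, 142, 109 and 135 raw counts in the WT and 83, 198, 87 and 84 in the *mtmr5*-KO libraries. After TMM scaling the genotypes did not overlap, at 86.1 ± 20.7 and 192 ± 64.0 (SD, n = 4 each, log2 fold change 1.16, SE 0.28, edgeR adjusted p = 0.00708). It was looked up after the values of the other interacting proteins were seen.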
